A study of Rattus norvegicus with 3 samples.

Results

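The genes described here drive the cell division cycle and copy the genome. They are a list of 53 rat genes, chosen by name and split into 9 genes of the G1/S step, 14 of DNA replication and 30 of G2 and mitosis (G2/M). A gene was measured through the array probe whose transcript accession belongs to it in RefSeq, and where a gene had several probes the brightest one was used. This gave 46 of the 53 genes, among 15149 genes on the arrays that could be named in the same way. The 7 without a matched probe were Mki67, Top2a, Cdc25c, Bub1b, Cenpe, Mcm5 and Anln, which are not analysed here. All 46 were well above background on all 3 arrays, namely all 9 G1/S genes, 13 replication genes and 24 G2/M genes.

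RNA came from ventricular cardiomyocytes of neonatal rats, all of them transfected: with an empty vector (control), with a vector expressing 11β-HSD1 (HSD1), or with the same 11β-HSD1 vector plus the inhibitor BVT.2733 (HSD1 plus BVT). 11β-HSD1 converts inactive 11-keto glucocorticoids into active hormone inside cells, and the study asked how the enzyme acts on cardiomyocyte hypertrophy. Each group was 1 pool of cells on 1 one-colour Agilent array, so there was no spread between cultures to test against, and every difference compares 2 arrays. The labels do not state the age in days, the promoter of the vector, the dose of BVT.2733, the times, or how many cultures made up each pool.

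A level is the log2 of a probe's processed signal minus the log2 of that array's percentile 75, so 0 is the brightness that 75% of spots stay below. A log2 ratio is the difference of 2 such levels. It compares a probe with itself, and levels of different genes are not comparable. The targeted gene, Hsd11b1, lay at a level of 3.39 in control, 3.86 with the vector and 3.77 with vector and inhibitor. It was therefore 0.48 above control with the vector and 0.38 above control with vector and inhibitor. The array of the inhibitor was scanned apart from the other pair, and for this reason the scan cannot be told apart from the inhibitor. Probes printed 10 times gave a median SD of the log2 ratio of single spots of 0.063 for HSD1 against control, 0.070 for HSD1 plus BVT against HSD1 and 0.049 for HSD1 plus BVT against control. This is the only error available, and it does not cover the cells. A gene was counted as shifted where its 2 arrays stood at 5 to 4 or further apart, which is a log2 ratio of 0.322 or more in size, and also at 1.5-fold and 2-fold.

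As background, cells enter the cycle when D-type cyclins with Cdk4 or Cdk6, and then E-type cyclins with Cdk2, phosphorylate the retinoblastoma protein and release E2F factors. E2F targets license origins and supply nucleotides for S phase. Later, B-MYB and FOXM1, bound together with the MuvB core at CHR elements and helped by NF-Y at CCAAT boxes, turn on the mitotic genes, and Cdk1 with cyclin B starts mitosis. In rodents most cardiomyocytes leave the cycle soon after birth, while fibroblasts and other non-muscle cells of such cultures go on dividing.

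The start-site regions of the genes differ between the classes in the letters they hold. RefSeq (GRCr8) gave a promoter window, 250 bases before to 50 bases after the start, for 32 of the 46 genes. An exact match to an E2F site (TTTCCCGC, TTTCGCGC, TTTGCCGC or TTTGGCGC, on either strand) was present in 7 of 10 replication genes, in 1 of 18 G2/M genes and in 0 of 4 G1/S genes. Among all 33469 windows of that length, 2.14% held one. The CHR letters TTTGAA, on either strand, were in 11 of 18 G2/M windows, in 1 of 10 replication windows and in 18.3% of all windows. CCAAT, on either strand, was in 14 of 18 G2/M windows, in 6 of 10 replication windows, in 2 of 4 G1/S windows and in 37.5% of all windows. Both CHR and CCAAT letters were in 10 of 18 G2/M windows (55.6%), against 7.41% of all windows. All windows include genes not measured here. Among the 9476 windows of genes measured on all 3 arrays, E2F letters were in 3.74% and CHR letters in 12.6%. CCAAT was in 38.4% of these, and both CHR and CCAAT letters in 5.29%. The searched letters do not overlap one another in the windows shown here. A match is a description of the letters and shows no binding. Windows are shown for 6 genes, 1 replication gene and 5 G2/M genes, chosen by their ratios on the arrays and not by their letters. Of the genes with a window, those 1.5-fold apart in any comparison came first. Those with the lowest median over the 3 comparisons followed. Capitals mark the matches, and the last 50 bases run from the start site on.
Cdt1: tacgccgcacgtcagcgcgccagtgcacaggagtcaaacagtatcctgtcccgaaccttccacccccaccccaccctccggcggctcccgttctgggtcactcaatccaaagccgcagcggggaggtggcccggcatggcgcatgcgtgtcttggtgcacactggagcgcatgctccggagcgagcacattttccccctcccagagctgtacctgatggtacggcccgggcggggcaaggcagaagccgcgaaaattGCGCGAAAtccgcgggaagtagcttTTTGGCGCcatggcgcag
Plk1: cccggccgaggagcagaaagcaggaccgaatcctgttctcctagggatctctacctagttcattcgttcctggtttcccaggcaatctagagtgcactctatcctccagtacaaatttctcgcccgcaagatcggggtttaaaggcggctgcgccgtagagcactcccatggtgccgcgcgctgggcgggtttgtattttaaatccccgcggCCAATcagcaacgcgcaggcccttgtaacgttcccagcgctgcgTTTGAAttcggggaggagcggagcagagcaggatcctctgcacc
Cenpf: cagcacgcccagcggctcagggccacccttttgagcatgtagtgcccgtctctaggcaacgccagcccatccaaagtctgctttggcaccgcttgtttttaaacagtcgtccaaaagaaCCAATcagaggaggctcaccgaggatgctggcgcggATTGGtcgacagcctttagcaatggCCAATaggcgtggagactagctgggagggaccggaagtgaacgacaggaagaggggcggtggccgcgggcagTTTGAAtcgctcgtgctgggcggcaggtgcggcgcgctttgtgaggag
Kif20a: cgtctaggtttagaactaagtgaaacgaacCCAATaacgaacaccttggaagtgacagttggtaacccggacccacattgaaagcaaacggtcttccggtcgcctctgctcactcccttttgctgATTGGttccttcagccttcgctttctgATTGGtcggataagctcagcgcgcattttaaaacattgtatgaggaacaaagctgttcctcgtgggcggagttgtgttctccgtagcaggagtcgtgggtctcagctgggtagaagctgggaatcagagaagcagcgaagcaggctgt
Cdk1: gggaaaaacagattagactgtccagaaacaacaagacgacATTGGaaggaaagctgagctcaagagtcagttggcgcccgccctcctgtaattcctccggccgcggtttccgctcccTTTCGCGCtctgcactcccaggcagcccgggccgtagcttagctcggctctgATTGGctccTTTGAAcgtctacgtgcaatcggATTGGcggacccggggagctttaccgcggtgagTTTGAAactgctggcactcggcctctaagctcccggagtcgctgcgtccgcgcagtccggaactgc
Ccnb1: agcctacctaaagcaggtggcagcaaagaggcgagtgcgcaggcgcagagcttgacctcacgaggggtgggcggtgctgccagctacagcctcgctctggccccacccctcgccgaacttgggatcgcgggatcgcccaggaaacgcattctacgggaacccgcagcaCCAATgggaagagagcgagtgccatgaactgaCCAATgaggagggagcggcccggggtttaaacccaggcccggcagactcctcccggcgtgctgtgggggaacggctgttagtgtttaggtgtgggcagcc
The windows lie at chr19:67528999-67529298 (Cdt1, + strand), chr1:186147408-186147707 (Plk1, + strand), chr13:103760837-103761136 (Cenpf, - strand), chr18:26504172-26504471 (Kif20a, + strand), chr20:19265043-19265342 (Cdk1, + strand) and chr2:33655176-33655475 (Ccnb1, - strand). Cdt1 holds E2F letters alone, in the bases that follow its start. Plk1 and Cenpf each hold a CHR match just after the start, with CCAAT letters upstream. Cdk1 is the G2/M gene with an E2F match, and it also holds 2 CHR matches and 3 CCAAT matches. Kif20a and Ccnb1 hold CCAAT letters and no TTTGAA in this window.

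The largest group of shifts was lower G2/M signal with the inhibitor. Against HSD1 alone, 22 of the 24 G2/M genes had a lower level in HSD1 plus BVT, and 9 of the 24 were lower by 0.322 or more. Their median log2 ratio was -0.28, while that of all 11698 genes was 0.01. Of all genes, 48.8% were below 0 and 12.4% were lower by 0.322 or more. No cell cycle gene differed by 2-fold in this comparison, a size that 2.08% of all genes reached, and Ube2c alone was lower by 1.5-fold, as were 3.71% of all genes. None was higher by 1.5-fold, as were 5.37%. Of the G1/S genes 8 of 9 were below 0, with a median of -0.16, and 1 of 9 was lower by 0.322. Across the 46 genes 36 were below 0, 10 were lower by 0.322, and 2 (Cdk6 and Pcna) were higher by that much, which 14.1% of all genes were. Replication genes were divided, with 6 of 13 below 0 and a median of 0.05, which turned negative in 4 of 9 other processing settings. Pools and bulk RNA do not allow fewer cells of a type and less RNA per cell to be told apart.

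With the vector alone the genes lay closer to control. The median log2 ratio of HSD1 against control was -0.06 over the 46 genes and 0.06 over all 11871 genes. Of the 46, 28 were below 0, against 39.9% of all genes. Lower by 0.322 or more was 1 gene, Tyms, against 7.24% of all genes, and higher by that much was 1 gene, Ccnd3, against 16.9%. None reached 1.5-fold (2.31% lower and 5.68% higher among all genes) or 2-fold (1.89% of all genes in either direction). The medians were 0.03 for G1/S, which was below 0 in 6 of 9 other settings, -0.12 for replication and -0.06 for G2/M, which was above 0 in 1 of 9.

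With vector and inhibitor against control, 37 of 46 genes were below 0, against 41.1% of all 11716 genes, and 19 were lower by 0.322 or more, against 10.1%. Higher by that much were 3 genes, Cdt1, Cdc25b and Cdk6, against 21.4% of all genes. The median over the 46 was -0.29, that over all genes 0.05. By class, G2/M had 21 of 24 below 0, 15 of 24 lower by 0.322 and a median of -0.36. Replication had 9 of 13 below 0, 3 lower by 0.322 and a median of -0.21, and G1/S had 7 of 9, 1 and -0.13. None reached 2-fold, as did 3.71% of all genes. Ube2c was lower by 1.5-fold (3.59% of all genes were) and Cdt1 higher by 1.5-fold (10.1%). This comparison shares its inhibitor array and its control array with the other pair of comparisons, so the 3 sets of values are not independent.

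**Figure D1:**
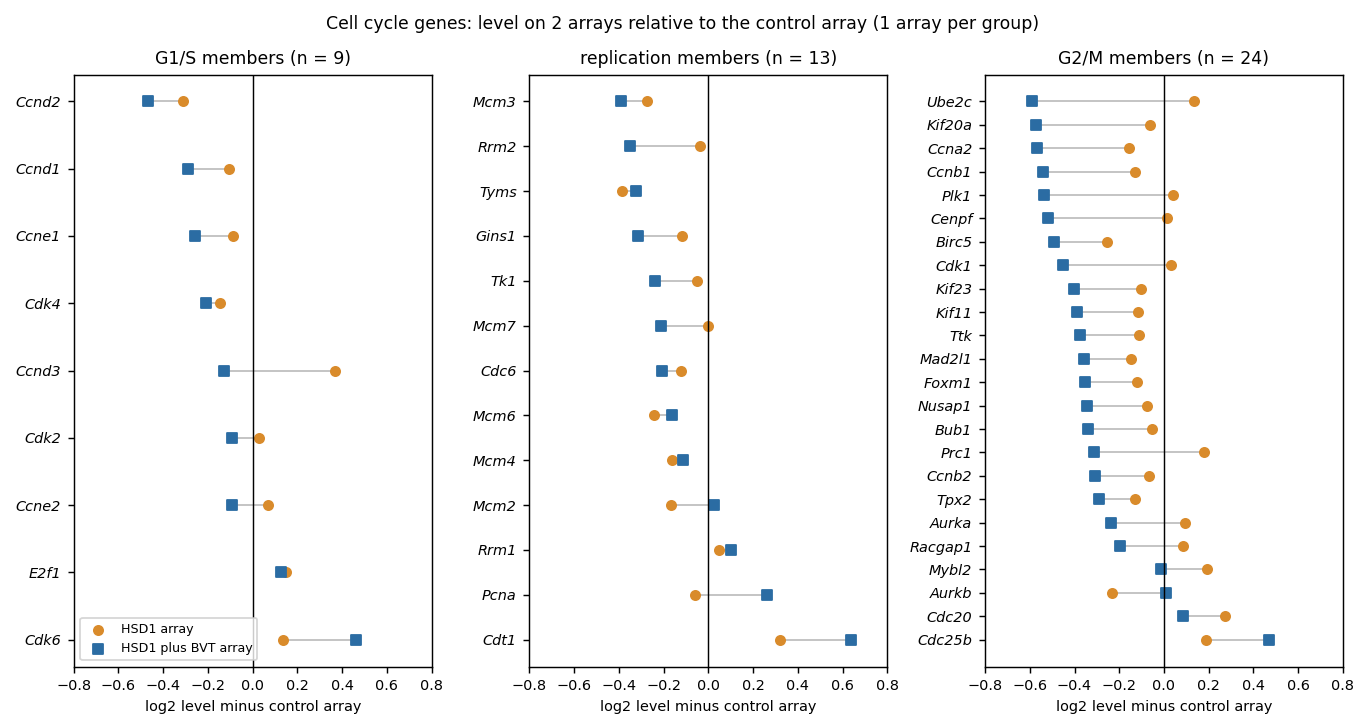
Log2 ratio to control (x axis) of each of the 46 cell cycle genes (y axis) on the HSD1 array and on the HSD1 plus BVT array. The 3 panels are by class, with 1 array per group and no error bars. In the G2/M panel 21 of 24 genes lie below 0 with the inhibitor, Ube2c at -0.59, while Cdc25b lies at 0.47.

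Each gene was also placed by the array on which it was lowest. The HSD1 plus BVT array was lowest for 34 of the 46 genes, 21 of 24 in G2/M, 7 of 9 in G1/S and 6 of 13 in replication, against 30.8% of the 11595 genes measured on all 3 arrays. The HSD1 array was lowest for 5 of 13 replication genes, against 25.9% of all genes. Control was lowest for 6 of the 46, against 43.3%. Summed over the G2/M probes, the signal in units of the array's percentile 75 was 12.07 in control, 12.18 in HSD1, and 9.61 with the inhibitor. The replication sum was 22.40, 20.83 and 19.68, and the G1/S sum was 5.69, 5.51 and 4.87, in the same order. Bright probes weigh most in such sums, as did Rrm2 in the replication sum, at levels of 3.09, 3.06 and 2.74. The replication median for the inhibitor against HSD1 was 0.05, with 6 of 13 genes below 0, beside 48.8% of all genes.

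**Figure D2:**
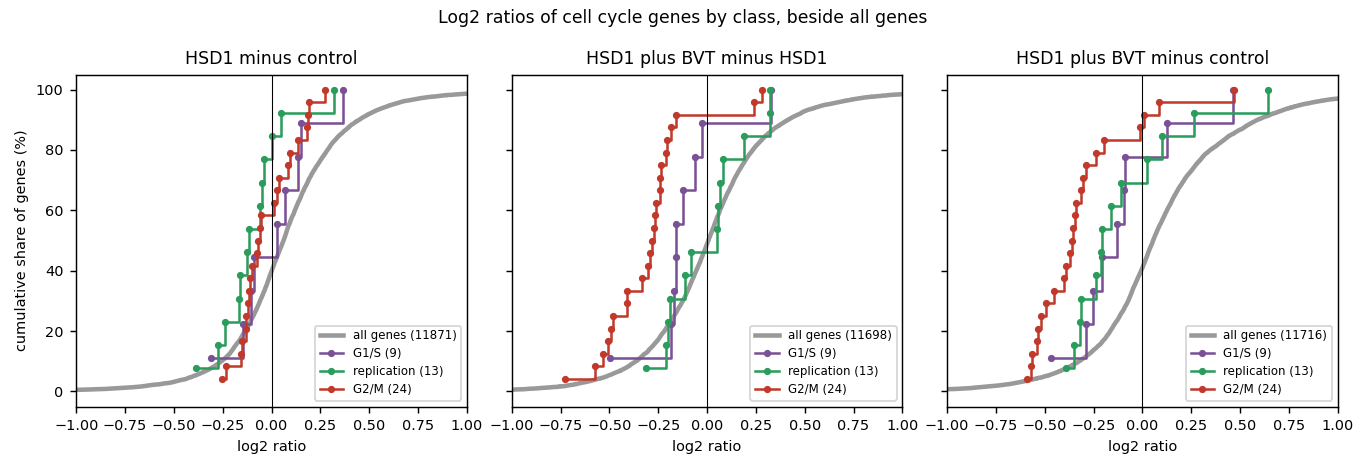
Cumulative share of genes (y axis, percent) at or below each log2 ratio (x axis), 1 panel per comparison, with a line for each class and one for all genes. The G2/M line lies to the left of the line of all genes in both comparisons with the inhibitor, at medians of -0.28 and -0.36 beside 0.01 and 0.05.

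Among the G1/S genes the D-type cyclins, which pair with Cdk4 and Cdk6, each had their lowest level with the inhibitor. Ccnd2 had levels of 0.59 in control, 0.28 in HSD1, and 0.13 with the inhibitor, a log2 ratio of -0.31 for vector against control and -0.47 for vector and inhibitor against control. Ccnd1 had levels of -0.60, -0.70 and -0.89 in the same order, with ratios of -0.10 for the vector and -0.29 for both. Ccnd3 took another course, at -0.45, -0.09 and -0.58. It was 1.29-fold higher with the vector than in control and 1.41-fold below HSD1 once the inhibitor was added.

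The E-type cyclins, partners of Cdk2 at the start of S phase, differed little. Ccne1 had levels of 0.50, 0.41 and 0.24 in control, HSD1 and HSD1 plus BVT, and Ccne2 had -3.82, -3.75 and -3.91. Their inhibitor arrays were the lowest, at ratios of -0.26 and -0.09 to control.

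The kinases and E2f1 lay on both sides of 0. Cdk4 had levels of -1.38, -1.53 and -1.59, highest in control. Cdk6, the other partner of the D-type cyclins, was lowest in control at -2.81, with -2.67 in HSD1 and -2.34 in HSD1 plus BVT, a ratio of 0.46 for the last against control. Cdk2 was printed 10 times, and its ratio to control was 0.03 ± 0.028 (SE between spots, n = 10) with the vector and -0.09 ± 0.032 with vector and inhibitor. E2f1, an activator of S-phase genes, had levels of -1.47, -1.32 and -1.34, lowest in control. It was 0.15 higher with the vector, but its other probe gave -0.06.

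Of the replication genes, the MCM genes encode subunits of the helicase that opens the double strand. Mcm3 had levels of 1.81 in control, 1.53 in HSD1, and 1.42 with the inhibitor, ratios to control of -0.28 and -0.39. Mcm6 had levels of -2.61, -2.85 and -2.77, and Mcm2 had -2.09, -2.25 and -2.06. Mcm7 had 0.68 in both control and HSD1 and 0.47 in HSD1 plus BVT. On their brightest probes Mcm3 and Mcm7 were thus lowest with the inhibitor, and Mcm6 and Mcm2 with the vector alone. The other probes of Mcm3 and Mcm2 placed them differently. That of Mcm3 was lowest with the vector alone, and that of Mcm2 was lowest in control. Mcm4 was also lowest with the vector alone, at -0.16 to control on its brightest probe and -0.34 on its other probe. As a group named after the values were seen, the 5 measured MCM genes had medians of -0.17 for the vector against control, 0.05 for the inhibitor against vector and -0.16 for both against control.

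Other replication genes load the helicase or build the fork. Gins1, a subunit of the GINS complex that joins the helicase, was printed 10 times. Its levels were -2.29, -2.41 and -2.61, and its ratios to control were -0.12 ± 0.022 with the vector and -0.32 ± 0.018 with both (SE between spots, n = 10). Cdc6, which with Cdt1 loads the helicase at origins, had ratios to control of -0.12 and -0.21. Pcna, the sliding clamp of the DNA polymerases, went the other way, with levels of 1.69, 1.63 and 1.95. It was highest with the inhibitor, at ratios of 0.32 to HSD1 and 0.26 to control. Cdt1 had the largest higher ratio of the 46 genes, with levels of -6.48, -6.16 and -5.84, 1.56-fold above control in HSD1 plus BVT. Its probe was dim, with processed signals of 14.8, 16.3 and 26.9. Under other settings its ratio of both against control ran from -0.06 to 0.64, changing sign in 1 of 9, and the ratio for the vector changed sign in 2 of 9.

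The nucleotide genes supply the bases for synthesis. Tyms, which makes thymidylate, had levels of -1.09 in control, -1.48 in HSD1, and -1.41 with the inhibitor. With the vector it stood 1.31-fold below control, the lowest ratio of the 46 genes in that comparison. Rrm2, the S-phase subunit of ribonucleotide reductase, had levels of 3.09, 3.06 and 2.74, a ratio of -0.31 for the inhibitor against HSD1. Its other probe gave -0.28. Rrm1, the large subunit of the same enzyme, had levels of -3.61, -3.56 and -3.51, with the inhibitor array the highest. Each of its 3 ratios changed sign in at least 1 other setting. Tk1, which salvages thymidine, had levels of -1.73, -1.78 and -1.97. Rrm2 and Tk1 were thus lowest with the inhibitor, whereas Tyms was lowest with the vector alone.

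In G2/M, the cyclins and their kinase were among the lower genes. Cdk1, the kinase that drives entry into mitosis, had levels of 1.09 in control, 1.12 in HSD1, and 0.64 with the inhibitor. Printed 10 times, it gave a log2 ratio of 0.03 ± 0.020 for the vector against control, -0.48 ± 0.019 for the inhibitor against HSD1 and -0.45 ± 0.019 for both against control (SE between spots, n = 10). Control and HSD1 were nearly level and the inhibitor array stood below them, with a spot error that does not cover the pools. Ccnb1, the B-type cyclin that activates Cdk1, had levels of -1.52, -1.65 and -2.06, 1.33-fold lower with the inhibitor than with the vector. Ccna2, the cyclin of S phase and G2, had levels of 0.47, 0.32 and -0.10, 1.48-fold below control in HSD1 plus BVT. Its other probe gave -0.50 for that ratio, against -0.57 for the brightest. Ccnb2 had ratios of -0.07, -0.24 and -0.31 in the 3 comparisons. All 8 cyclin genes, D and E types included and grouped after the values were seen, were below 0 with the inhibitor against HSD1, at a median of -0.21, and 3 of the 8 were lower by 0.322. Of all genes 48.8% were below 0 and 12.4% were lower by that much.

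The phosphatase that removes the inhibitory phosphates from Cdk1 ran against this. Cdc25b had levels of -2.86 in control, -2.67 in HSD1, and -2.39 with the inhibitor. It was 1.38-fold above control with vector and inhibitor, the highest G2/M ratio, and its other probe gave 0.22 where the brightest gave 0.47.

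The transcription factors of the mitotic programme are Foxm1 and Mybl2. Foxm1 had levels of -1.94, -2.06 and -2.29, with ratios to control of -0.12 ± 0.024 with the vector and -0.36 ± 0.025 with both (SE between spots, n = 10). Its other probe was not well above background. Mybl2, which encodes B-MYB, had levels of -1.51, -1.32 and -1.53, highest with the vector. Its probes disagreed: the ratio of HSD1 plus BVT to control was -0.01 on the brightest probe and 0.47 on the other.

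Of 5 mitotic kinases, grouped after the values were seen, 4 were below 0 for the inhibitor against HSD1 and 2 were lower by 0.322, beside 48.8% and 12.4% of all genes. Plk1, which acts on centrosomes, kinetochores and cytokinesis, had levels of -0.23 in control, -0.19 in HSD1, and -0.77 with the inhibitor. It stood 1.49-fold below HSD1 and 1.45-fold below control on the inhibitor array. Aurkb, the kinase of the chromosomal passenger complex, had levels of -4.60, -4.83 and -4.59, so here the HSD1 array was the low one. Its vector ratio ran from -0.42 to 0.04 over the other settings. Birc5 (survivin), the partner of Aurkb, had -1.72, -1.98 and -2.21, in steps of -0.25 for the vector and -0.24 for the inhibitor. Aurka, the spindle-pole kinase, Bub1, a checkpoint kinase of the kinetochore, and Ttk (MPS1), which starts checkpoint signalling, had ratios of -0.33, -0.29 and -0.26 for the inhibitor against HSD1.

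The checkpoint and the anaphase-promoting complex gave the lowest single gene in each comparison with the inhibitor. Ube2c, the ubiquitin-conjugating enzyme of that complex, had levels of -2.09, -1.96 and -2.68. The inhibitor array was 1.65-fold below HSD1 and 1.51-fold below control, and the first of these ratios ran from -0.79 to -0.64 over the other settings. Cdc20, which activates the complex, had levels of 0.57, 0.84 and 0.66, highest with the vector. Its ratio was -0.19 for the inhibitor against HSD1 and 0.09 for both against control. The latter changed sign in at least 1 other setting. Mad2l1, which holds Cdc20 back while chromosomes are unattached, had levels of -1.46, -1.61 and -1.82. Under the reported processing Ube2c and Mad2l1 were lowest with the inhibitor, and Cdc20 was lowest in control.

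Of 7 measured spindle and cytokinesis genes among the 24, grouped after the values were seen, 7 were below 0 for the inhibitor against HSD1 and 2 were lower by 0.322, beside 48.8% and 12.4% of all genes. Kif20a, a kinesin of the central spindle, had levels of -1.53 in control, -1.60 in HSD1, and -2.11 with the inhibitor, 1.42-fold below HSD1 on the last. Cenpf, a large kinetochore protein, had -4.73, -4.71 and -5.25, 1.45-fold below HSD1. The other Cenpf probe was not well above background on the inhibitor array and gave 0.49 for the vector against control, where the brightest gave 0.01. Both genes had control and HSD1 close together and the inhibitor array apart. Kif11, the kinesin that pushes spindle poles apart, gave -0.12 ± 0.017 for the vector and -0.39 ± 0.016 for both against control. The microtubule bundler Nusap1 gave -0.08 ± 0.022 and -0.35 ± 0.025 (SE between spots, n = 10 printed). Outlier spots of Kif11 were left out in control and HSD1, but its SE was taken over all 10, so it is slightly too small. Kif23 and Racgap1, which form centralspindlin, Prc1, which bundles the midzone, and Tpx2, which targets Aurora A, had ratios of -0.30, -0.28, -0.49 and -0.16 for the inhibitor against HSD1. The other Prc1 probe gave -0.34 for that ratio. The 10 G2/M genes given without their 3 levels (Aurka, Bub1, Ccnb2, Kif11, Kif23, Nusap1, Prc1, Racgap1, Tpx2 and Ttk) spanned -0.13 to 0.18 for the vector, -0.49 to -0.16 for the inhibitor against HSD1 and -0.40 to -0.20 for both.

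A second probe was measured for part of the genes. For HSD1 plus BVT against control 9 genes had one, and 8 of the 9 gave the same sign as the brightest probe. For the inhibitor against HSD1 it was 6 of 9, and for the vector 7 of 10.

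The scaling of the arrays moves the ratios of all genes, so each class was also set against the median of all genes under 9 other settings. In that relative form the G2/M median of the inhibitor against HSD1 ran from -0.29 to -0.23, and that of both against control from -0.43 to -0.33. The replication median ran from -0.22 to -0.14 for the vector and from -0.04 to 0.06 for the inhibitor against HSD1. For G1/S it ran from -0.12 to -0.03 for the vector and from -0.17 to -0.04 for the inhibitor against HSD1.

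**Figure D3:**
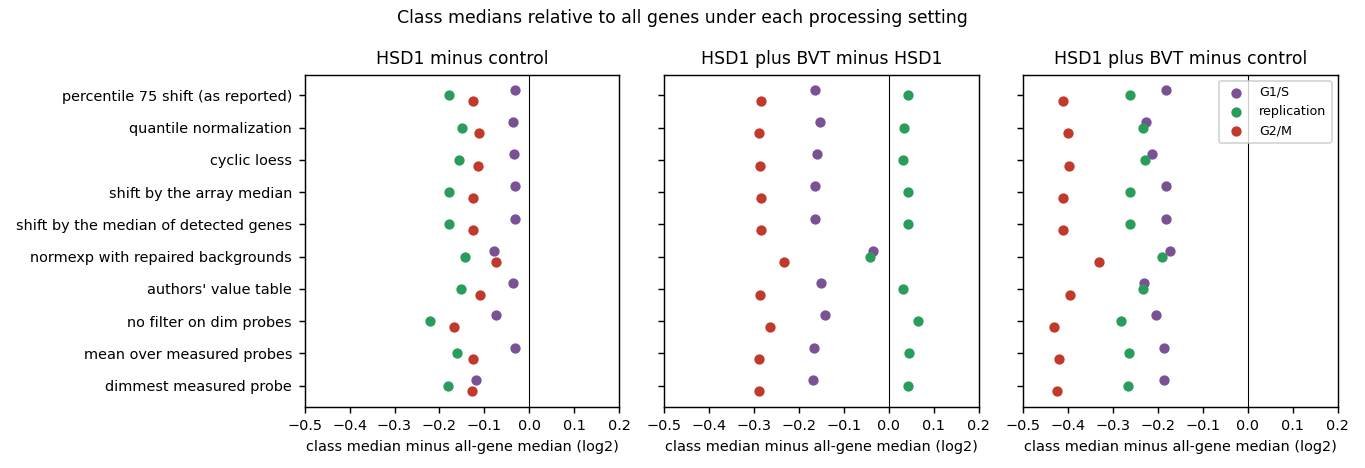
Median log2 ratio of each class minus the median of all genes (x axis) under the reported processing and 9 other settings (y axis), 1 panel per comparison. G2/M stays between -0.29 and -0.23 for the inhibitor against HSD1 over the 9 settings, and replication lies below 0 there in 1 setting.

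Further genes of the same steps, taken from lists that do not contain the 46, were read on the same arrays. Of 33 further mitosis genes measured of 46 listed, 26 were below 0 for the inhibitor against HSD1, 7 were lower by 0.322 and 1 higher, with a median of -0.17. Among all genes the shares were 48.8% below 0, 12.4% lower and 14.1% higher. Against control, vector and inhibitor gave a median of -0.33, with 17 lower by 0.322 and 1 higher, beside 10.1% and 21.4% of all genes. The list was not uniform. Nek2, a centrosome kinase, had a ratio of 0.38 for the inhibitor against HSD1, and Tacc3, a spindle protein, 0.19. Both were named after their values were seen. The Nek2 probe was dim, at levels of -6.01 in control, -6.25 in HSD1 and -5.86 with the inhibitor. For both against control, the lowest were Cenpi, a kinetochore protein, at -0.75 and Pttg1 (securin), which holds separase inactive, at -0.64. The highest there were Pkmyt1, a kinase that inhibits Cdk1, at 0.32 and Bora, an activator of Aurora A, at 0.19. The probes of Cenpi and Bora were dim too, at levels of -5.46 and -5.15 on the inhibitor array. With the vector alone the median was -0.12, and 1 of the 33 was lower by 0.322, beside 7.24% of all genes.

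Among further replication genes, 31 of 36 were measured in both comparisons with the inhibitor. Their median was -0.10 for the inhibitor against HSD1 and -0.14 for both against control, with 8 lower by 0.322 and 0 higher in the latter, beside 10.1% and 21.4% of all genes. Gins2, a GINS subunit, at -0.96 and Pola1, the catalytic subunit of polymerase alpha, at -0.84 were the lowest. Dut, which clears dUTP, at 0.21 and Mcm10, an initiation factor, at 0.19 were the highest. The probes of Gins2, Pola1 and Mcm10 were dim, at levels of -4.93, -5.73 and -4.95 on the inhibitor array. The vector alone gave a median of -0.07 over 32 genes.

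Of the pocket protein, E2F and DREAM genes, 10 of 16 were measured. Their medians were 0.13 for the vector, -0.12 for the inhibitor against HSD1 and 0.06 for both against control. Rbl1 (p107), a repressor of E2F targets, was lowest at -0.43, followed by Tfdp1, the partner of E2F proteins, at -0.11. The repressor E2F genes E2f7 and E2f6 were highest at 0.49 and 0.45.

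The CDK inhibitor genes, all 8 measured, held the only differences of 2-fold among these 4 further lists. Cdkn1c (p57), which blocks cyclin-CDK complexes, had levels of -1.53 in control, 0.06 in HSD1, and -0.66 with the inhibitor. The vector array stood 3.01-fold above control, and the inhibitor array 1.65-fold below the vector array. Cdkn2b (p15), an inhibitor of Cdk4 and Cdk6, had levels of 0.62, -0.57 and -0.50, with both vector arrays below control, at ratios of -1.19 and -1.12. Over the other settings the vector's ratio ran from 1.42 to 1.64 for Cdkn1c and from -1.30 to -1.12 for Cdkn2b.

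The other CDK inhibitor genes differed less. Cdkn1a (p21) had levels of 1.49, 1.86 and 1.69, 1.30-fold above control with the vector. Cdkn1b (p27) had levels of 0.55, 0.65 and 0.14, 1.42-fold below HSD1 with the inhibitor. Cdkn2a had -3.80, -4.17 and -4.04, highest in control. Cdkn3, a phosphatase of CDKs that is itself a gene of the late cycle, had -4.57, -4.21 and -5.19, a ratio of -0.98 for the inhibitor against HSD1. Control and HSD1 lay above the inhibitor array for Cdkn1b and Cdkn3, as they did for Cdk1 and Plk1. The 8 genes had medians of 0.07 for the vector, -0.10 for the inhibitor against HSD1 and -0.21 for both against control.

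Markers of the cells that such cultures hold also differed between the arrays. All 14 measured cardiomyocyte markers, among them Myh6, Tnnt2 and Actn2, were well above background, and so were all 14 fibroblast markers, Col1a1 and Pdgfra included. The cardiomyocyte sum was 370.3 in control, 405.3 in HSD1, and 434.0 with the inhibitor, and the fibroblast sum was 272.9, 281.4 and 271.5, in units of the percentile 75. For the inhibitor against HSD1, the median ratio was 0.06 over cardiomyocyte markers, with 4 of 14 below 0, and -0.13 over fibroblast markers, with 10 of 14 below 0. The markers of smooth muscle and pericytes had a median of -0.42 in that comparison, with 9 of 10 below 0 and 6 of 10 lower by 0.322, and sums of 48.96, 55.98 and 43.10. Of all genes 48.8% were below 0 and 12.4% were lower by 0.322 there. The fibroblast and smooth muscle medians were thus of the same sign as the G2/M median in that comparison, and the cardiomyocyte median was of the opposite sign. The part of these markers in the G2/M values was not tested.

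Fewer markers of blood vessel and immune cells were measured. Endothelial sums were 5.50, 8.50 and 10.04. Kdr, the brightest of these probes, had levels of 2.27, 2.89 and 3.19 and made up most of each sum. With the vector 8 of 8 measured markers were above control. Their median was 0.66 beside 0.06 for all genes, of which 39.9% were below control. The inhibitor against HSD1 gave an endothelial median of -0.10, with 6 of 8 below 0, beside 48.8% of all genes. Tie1 and Emcn were not well above background on any array. Macrophage and leucocyte sums were 13.26, 19.05 and 14.70. Lyz2, the brightest of these probes, had levels of 3.51, 4.09 and 3.65 and made up most of each sum. The vector gave a median of 0.20, with 3 of 9 markers below 0, beside 39.9% of all genes. The inhibitor against HSD1 gave -0.11, with 5 of 9 below 0, beside 48.8% of all genes. Cd163, C1qa and Itgam were well above background on at most 1 array. The largest single ratios were 0.49 for Pln and 0.47 for Tnnc1 with both (cardiomyocyte), -1.18 for Fbln1 and -0.99 for Lum with both (fibroblast), 1.07 for Sox17 with the vector and -1.05 for Tek with the inhibitor (endothelial), -1.40 for Rgs5 with both and -0.81 for Myh11 with the inhibitor (smooth muscle), and 1.57 for Mrc1 with the vector and 0.97 for Adgre1 with both (macrophage). Several of these ratios came from dim probes. In control, HSD1 and HSD1 plus BVT, Sox17 had levels of -6.24, -5.17 and -6.02, and Tek -5.75, -4.95 and -6.00. In the same order Rgs5 had -4.58, -4.87 and -5.98, Fbln1 -4.69, -5.51 and -5.87, and Adgre1 -5.78, -5.49 and -4.81. The part of the markers in the cell cycle values was not tested.

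**Figure D4:**
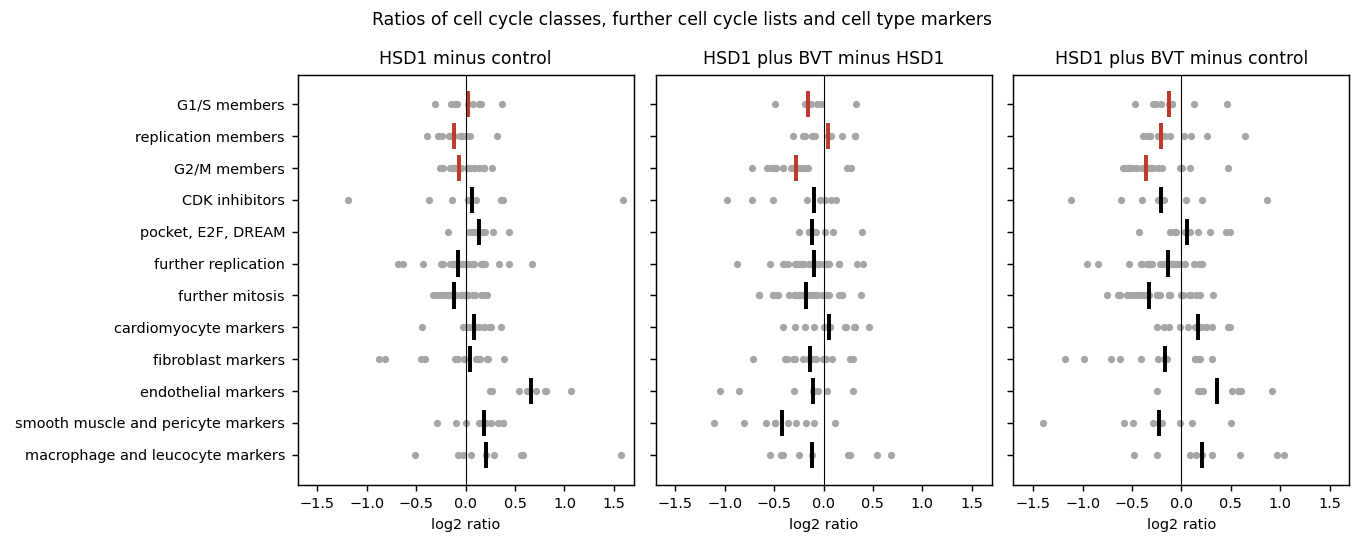
Log2 ratios (x axis) of single genes (grey points) and list medians (bars, red for the 3 classes) for the cell cycle classes, the further cell cycle lists and the cell type markers (y axis), 1 panel per comparison. For the inhibitor against HSD1 the G2/M median lies at -0.28, the further mitosis median at -0.17 and the smooth muscle median at -0.42.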

How the data were processed

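RNA of 1 pool per group was read on 1 Cy3 array each. Agilent Feature Extraction 11.0.1.1 made the spot values, per the file headers and the submitters' processing notes. The deposited intensity of a spot is its processed signal after background subtraction. A second deposited table holds log2 values, made with software that the sources used here do not name. It tracked the log2 processed signal of each array at r = 1.00, on a log2 scale with no centring per gene, and served as an alternative. Control spots and outlier spots (311 in control, 409 in HSD1, 363 in HSD1 plus BVT) were left out. Spots of a probe were averaged on the log2 scale after subtraction of the percentile 75, which was 1319, 1164 and 1543. Of 30367 probes, 17997 matched 1 gene through RefSeq (GRCr8), by accession, and 12370 did not; gene names can differ from those of the array's design. A probe counted as measured on an array where a share of at least 0.5 of its spots was well above background. Of all spots 82.0%, 82.5% and 81.2% were, and none was saturated. Each pair of arrays correlated at r = 0.99 across 22139 probes. The software was limma 3.58.1 in R 4.3.3 and Python 3.11.15.

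A single array per group allows no test. Differences are therefore described by size, at a log2 ratio of 0.322, at 1.5-fold and at 2-fold, and precision is limited by how few arrays there are. The members, the lists, the markers and the rule for named genes were chosen with earlier results of these data known. The rule gives all 3 levels for the 4 lowest and 2 highest genes per class and comparison, for genes 1.5-fold apart and for 12 genes fixed by name, and of other lists the most extreme genes. The alternatives were quantile normalization, cyclic loess, a shift by the array median or by the median of detected genes, normexp with offset 50, the authors' table, no filter on dim probes, and the mean or the dimmest of a gene's probes. Normexp could not be run as planned, since 5 spots of the HSD1 array with a local background above 100 broke its fit; these were given the array's median background, a repair chosen after seeing the data.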

Additional observations from a re-analysis of the deposited data

How the results depend on the processing

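No cell cycle gene reached 2-fold in any comparison under any of the 9 other settings. Of the 22 genes at least 0.322 from control in HSD1 plus BVT, Cdt1 alone changed sign in any setting, and of the 12 for the inhibitor against HSD1, 0 did. Of all 46 genes, 17, 9 and 7 changed sign in at least 1 setting, for vector against control, inhibitor against HSD1, and both against control. Aurkb, Cdt1, E2f1 and Rrm1 were among them each time. A shift by the array median moved the median of all genes from 0.05 to -0.12 for both against control and from 0.06 to -0.05 for the vector. Under it the medians of both against control were -0.47 for the 46 genes, -0.30 for G1/S, -0.38 for replication and -0.53 for G2/M, and those of the vector -0.17, -0.080, -0.23 and -0.17. In the same order, the medians of both against control were -0.39, -0.27, -0.28 and -0.45 with quantile normalization, -0.37, -0.24, -0.26 and -0.43 with cyclic loess, -0.37, -0.20, -0.28 and -0.43 with a shift by the median of detected genes, and -0.39, -0.28, -0.28 and -0.44 in the authors' table. The G1/S median of the vector was -0.048 with quantile normalization, -0.044 with cyclic loess, -0.047 in the authors' table and -0.056 on the dimmest probes. Normexp gave -0.048 for replication and 0.022 for G2/M with the vector, -0.14 for replication with the inhibitor against HSD1, and -0.19 for G1/S with both. The cause of these moves was not tested.

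Genes lower by 0.322 or more numbered 19 to 32 of 46 for both against control, 10 to 17 for the inhibitor against HSD1 and 0 to 6 for the vector. In G2/M they numbered 15 to 20 and 9 to 15 in the comparisons with the inhibitor. The share of all genes lower by 0.322 or more moved with the setting too, so the spread of these counts includes moves of all genes. For both against control and for the vector that share was highest under the shift by the array median and lowest with normexp. For the inhibitor against HSD1 it was highest without the filter on dim probes. At 1.5-fold the 46 genes gave 0 to 9 lower for both against control and 1 to 3 for the inhibitor. Over all genes, 88 were lower and 347 higher by 2-fold for both against control, but 155 and 194 with quantile normalization. For the vector 64 were lower and 160 higher, but 92 and 117 with quantile normalization, and for the inhibitor 68 and 175, but 1016 and 517 without the filter on dim probes. No replicate could be left out, because each group had 1 array. No paired analysis was possible because no group had a second array. Dim probes such as that of Cdt1 limit what the arrays can show.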
